A study of Mus musculus with 6 samples.

Results

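The 10 genes Pecam1, Cdh5, Kdr, Flt1, Tek, Tie1, Emcn, Sox18, Sox7 and Ctla2a were followed in RNA-seq of the mouse tailbud at E10.5 (embryonic day). They are 9 endothelial genes and Ctla2a, out of 54134 genes in the count table, and were selected by name with their measured counts in these same 6 libraries already known. Their levels in the 2 genotypes are therefore a description and carry no test. All 10 were among the 12733 genes that passed the filter on low counts. The tissue was everything caudal to the last somite of C57BL/6 embryos matched for somite number, and each library came from 1 embryo. The 4 wildtype libraries were from embryos labelled wildtype by genotype. The 2 Cdx2P:Nr6a1 libraries were from transient transgenic embryos, in which the Cdx2P promoter drove the long isoform of Nr6a1 and no line was established, so that each of the 2 embryos is an independent transgene insertion. No source used here ties activity of this promoter to endothelial cells. The tissue was sequenced in bulk, in which fewer cells of a type and less RNA per cell cannot be told apart.

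Endothelial cells line the blood vessels. Vascular endothelial growth factor (VEGF) drives their growth through the receptor Kdr, while Flt1 binds the same ligand tightly and limits how much of it reaches Kdr. Angiopoietins act through the receptor Tek, with which the related Tie1 associates, to stabilise vessels. Pecam1 and Cdh5 hold neighbouring endothelial cells together, Emcn is a sialomucin of their surface, and Sox18 and Sox7 are transcription factors of vessel formation. Ctla2a is of another kind. It encodes a small protein that resembles the propeptide of cysteine cathepsins and inhibits cathepsin L, and it was first described in activated T cells. Nr6a1 is an orphan nuclear receptor that acts mostly as a repressor.

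The sequences upstream of 3 of the genes are shown because Ctla2a stood apart between the genotypes, whereas the values of Kdr and Tek, a receptor from each of the vessel growth pathways, overlapped. Each run is the 250 bases before a RefSeq transcription start, read 5′ to 3′ on the strand of the gene, in build GRCm38.p6. The window of Ctla2a is chr13:60936626-60936875 on the minus strand, that of Kdr is chr5:75978456-75978705 on the minus strand, and that of Tek is chr4:94739039-94739288 on the plus strand. Capitals mark GGAA on either strand, the core bound by ETS factors, a family that many endothelial promoters and enhancers respond to.
Ctla2a: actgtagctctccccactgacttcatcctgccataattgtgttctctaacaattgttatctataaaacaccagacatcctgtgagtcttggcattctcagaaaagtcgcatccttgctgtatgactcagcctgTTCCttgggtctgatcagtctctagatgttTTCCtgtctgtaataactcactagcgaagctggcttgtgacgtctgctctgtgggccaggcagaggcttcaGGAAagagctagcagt
Kdr: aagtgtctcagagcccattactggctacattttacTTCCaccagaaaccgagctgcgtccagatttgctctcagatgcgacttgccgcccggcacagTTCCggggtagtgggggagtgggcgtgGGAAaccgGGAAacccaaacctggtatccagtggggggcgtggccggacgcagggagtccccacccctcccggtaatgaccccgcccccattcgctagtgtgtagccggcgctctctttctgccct
Tek: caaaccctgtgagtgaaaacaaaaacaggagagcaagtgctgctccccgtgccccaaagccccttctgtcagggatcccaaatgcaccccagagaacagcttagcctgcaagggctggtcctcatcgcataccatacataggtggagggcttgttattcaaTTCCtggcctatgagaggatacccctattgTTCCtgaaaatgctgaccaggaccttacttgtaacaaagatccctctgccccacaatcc
The Ctla2a window held 3 matches, the Kdr window 4 and the Tek window 2. RefSeq gives Ctla2a a second start 59 bases downstream, whose window held 5 matches, and the one shown begins where the gene does in the count table. Of 32851 RefSeq windows of this length, 93.5% held GGAA and the median was 3 matches. The nonamer TCAAGGTCA, of the kind bound by Nr6a1, had no match on either strand in the windows of the 6 members for which a sequence was matched, and was found in 0.387% of all windows. A motif match is a description of the letters only.

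The libraries held between 44073460 and 67183802 counts. Nr6a1 was measured at 3.91, 5.18, 5.53 and 6.89 CPM (counts scaled so that every library has the same total) in the wildtype libraries and at 23.4 and 33.8 CPM in the Cdx2P:Nr6a1 libraries. This was an increase of 2.41 ± 0.20 (log2 ± SE, adjusted p = 0.0013 in edgeR's quasi-likelihood test), in the direction the labels give. Of the 12733 genes tested, 203 were called at a false discovery rate of 0.05, which is 1.59%. Of these, 100 were higher and 103 lower in Cdx2P:Nr6a1, and the median log2 fold change over all genes tested was -0.00071.

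Every member was detected in every wildtype library. Per kilobase of exon, Cdh5 had the highest level, a wildtype mean of 14.7 CPM per kilobase, and its lowest wildtype library lay above the highest library of each other member. Pecam1 followed at 6.35, Kdr at 5.53, Sox18 at 5.48 and Tie1 at 5.43 CPM per kilobase, and the wildtype ranges of neighbours in this order overlapped. The ranges of Tek at 3.37, Emcn at 3.33, Ctla2a at 2.21 and Flt1 at 2.00 CPM per kilobase also overlapped from neighbour to neighbour. Sox7 was lowest, at 1.41 CPM per kilobase, and its range lay below that of Flt1. Across the 4 wildtype embryos the coefficient of variation of the CPM values ran from 7.47% for Flt1 to 23.7% for Emcn, and that of Ctla2a was 14.9%.

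The 9 endothelial genes had close levels in the 2 genotypes, and Ctla2a was several-fold higher in both Cdx2P:Nr6a1 libraries. With edgeR's fit over all genes, 1 of the 10 members was called, Ctla2a, beside 1.59% of all genes tested. By the plain criterion that both Cdx2P:Nr6a1 libraries lie beyond all wildtype libraries in CPM, 1 of the 10 members, again Ctla2a, was set apart, beside 18.6% of all genes tested. Since the members were chosen on this contrast, nothing is read from either count. The median log2 fold change of the 9 endothelial genes was 0.08, from -0.17 for Flt1 to 0.18 for Tek.

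**Figure D1:**
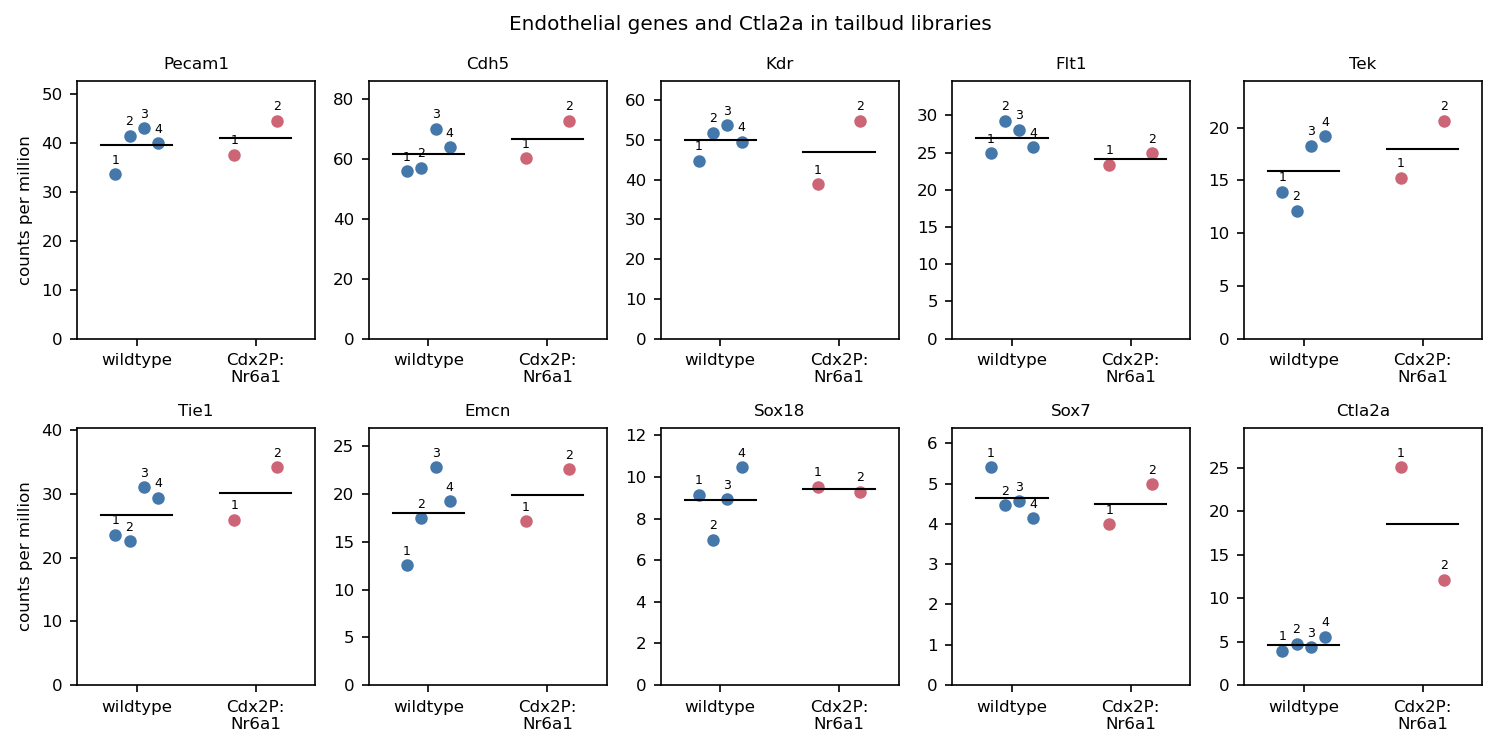
CPM (y axis, from 0, a separate scale for each gene) of the 10 members in the 4 wildtype (blue) and 2 Cdx2P:Nr6a1 (red) libraries. Each point is 1 library with its replicate number and the line is the mean. The groups overlap in the 9 endothelial genes, though in Flt1 only barely (24.93 against 24.92 CPM), and the Ctla2a values of 25.0 and 12.1 CPM lie above the highest wildtype value of 5.56 CPM.

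Among the junction and surface genes, Cdh5 (VE-cadherin, the cadherin of endothelial junctions; chromosome 8) was at 55.9, 57.1, 70.2 and 64.0 CPM in wildtype and at 60.4 and 72.8 CPM in Cdx2P:Nr6a1. Pecam1 (chromosome 11) was at 33.6, 41.5, 43.1 and 40.0 CPM in wildtype and at 37.7 and 44.6 CPM in Cdx2P:Nr6a1. For each of the pair the first Cdx2P:Nr6a1 library fell inside the wildtype range and the second just above it. The fitted changes were 0.10 ± 0.10 for Cdh5 and 0.05 ± 0.10 for Pecam1 (log2 ± SE). Emcn (chromosome 3) was the most variable of the 10 within wildtype, at 12.6, 17.5, 22.8 and 19.2 CPM, and at 17.2 and 22.6 CPM in Cdx2P:Nr6a1 it lay inside that range, with a fitted change of 0.14 ± 0.21.

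Of the VEGF receptors, Kdr (chromosome 5) was at 44.8, 51.8, 53.6 and 49.6 CPM in wildtype and at 38.9 and 54.8 CPM in Cdx2P:Nr6a1. The 2 transgenic embryos thus lay on opposite sides of the wildtype range, and the fitted change was -0.09 ± 0.12. Flt1 (also on chromosome 5) was at 24.9, 29.3, 28.1 and 25.8 CPM in wildtype and at 23.4 and 24.9 CPM in Cdx2P:Nr6a1. Its values were at the low end of the wildtype range or below, and its fitted change, -0.17 ± 0.08, was the lowest of the 9. The groups barely overlapped, with the second Cdx2P:Nr6a1 library at 24.93 CPM and the lowest wildtype library at 24.92 CPM.

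The angiopoietin receptor Tek (chromosome 4) was at 13.9, 12.1, 18.3 and 19.2 CPM in wildtype and at 15.3 and 20.7 CPM in Cdx2P:Nr6a1. Its partner Tie1 (chromosome 4) was at 23.6, 22.6, 31.1 and 29.4 CPM in wildtype and at 26.0 and 34.2 CPM in Cdx2P:Nr6a1. Both had lower values in the first 2 wildtype embryos than in the other two, and a higher value in the second Cdx2P:Nr6a1 embryo than in the first. The fitted changes were 0.18 ± 0.19 for Tek and 0.17 ± 0.15 for Tie1.

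The SOXF transcription factors were the members with the fewest counts of the 9. Sox18 (chromosome 2) was at 9.15, 6.98, 8.92 and 10.47 CPM in wildtype and at 9.53 and 9.29 CPM in Cdx2P:Nr6a1, within the wildtype range. Sox7 (chromosome 14) was at 5.41, 4.46, 4.56 and 4.14 CPM in wildtype and at 3.99 and 4.99 CPM in Cdx2P:Nr6a1, the first below the wildtype range and the second within it. The fitted changes were 0.08 ± 0.15 and -0.05 ± 0.15.

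The summed level of the 9 endothelial genes was 224, 243, 281 and 262 CPM in the wildtype libraries and 232 and 289 CPM in the Cdx2P:Nr6a1 libraries. The first Cdx2P:Nr6a1 embryo had 1 of the 9 genes above its wildtype mean and the second had 8 of the 9, so the transgenic embryos differed from each other in the direction of these genes. Without the second Cdx2P:Nr6a1 embryo the median log2 fold change of the 9 became -0.080, and without the first it became 0.17.

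Ctla2a (chromosome 13, minus strand, chr13:60934155-60936625 in the count table) was at 3.95, 4.76, 4.33 and 5.56 CPM in wildtype, from 194, 266, 242 and 250 counts. In Cdx2P:Nr6a1 it was at 25.0 and 12.1 CPM, from 1104 and 812 counts. Both transgenic values lay above every wildtype value, and the first was higher than the second. The fitted change was 1.99 ± 0.24 (log2 ± SE), which is 3.96-fold. Without the first Cdx2P:Nr6a1 embryo it was 1.38, and without the second it was 2.42, so that its size depended on the embryo while its direction was kept. The order of the 2 embryos was the reverse of that of Nr6a1, which was at 23.4 CPM in the first and 33.8 CPM in the second.

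Set against the endothelial genes of the same library, Ctla2a came to 1.76%, 1.96%, 1.54% and 2.12% of their summed CPM in wildtype, a mean of 1.85% ± 0.25 (SD, n = 4). In the Cdx2P:Nr6a1 libraries it came to 10.8% and 4.18%. The first of these libraries had the higher Ctla2a level and the lower summed endothelial level.

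Ctla2a has a near relative, Ctla2b, and their reads can be hard to separate. Of the distinct 75-base windows in the annotated Ctla2a transcripts, 4.15% also occur in Ctla2b. Ctla2b was counted 0, 0, 0 and 5 times in wildtype and 0 and 4 times in Cdx2P:Nr6a1, too few to be tested. The exons of Ctla2a share 16.3% of their bases with the gene models Gm49391 and Gm49393, which run across Ctla2a and Ctla2b and were listed at 0 in all 6 libraries. The exons of the 9 endothelial genes share no base with another gene in the table.

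Ctla2a sits among genes used by the placenta. Its neighbour Tpbpa, a trophoblast gene, was counted 0, 0, 0 and 7 times in wildtype and 0 and 16 times in Cdx2P:Nr6a1. Ctsj, a cathepsin of the placenta farther along the chromosome, was counted 6, 9, 1 and 0 times in wildtype and 4 and 168 times in Cdx2P:Nr6a1. Ctsj was thus high in the second Cdx2P:Nr6a1 library only, whereas Ctla2a was highest in the first.

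Markers of tissues that surround the embryo moved with genotype in part, by lists drawn up after their values had been seen. The summed CPM of 7 decidual genes was 9.66, 5.25, 0.644 and 23.2 in wildtype and 37.3 and 31.1 in Cdx2P:Nr6a1. Of these genes Prl8a2, a prolactin relative of the decidua, gave most of the sum, at 7.02, 3.30, 0.340 and 21.4 CPM in wildtype and at 30.5 and 21.1 CPM in Cdx2P:Nr6a1 (edgeR adjusted p = 0.62), while Prl3c1 was at 0 in every library. The granzymes Gzmc, Gzmd, Gzme, Gzmf and Gzmg were higher in both Cdx2P:Nr6a1 libraries than in any wildtype library, for example Gzmd at 0.854, 0.555, 0.0358 and 0.200 CPM against 1.95 and 2.56 CPM, but none passed the filter on low counts. With no filter edgeR called Prl8a2 and these granzymes. Prl8a2 was also called in a fit with replicate number as a factor (the replicate block). Replicates 3 and 4 exist only in wildtype, so that fit took the genotype effect from replicates 1 and 2 alone. Wildtype replicate 4 and Cdx2P:Nr6a1 replicate 2 had close Prl8a2 levels, 21.4 and 21.1 CPM, and Ctla2a levels of 5.56 and 12.1 CPM. Their decidual sums differed, at 23.2 and 31.1 CPM, as did Gzmd, at 0.200 and 2.56 CPM. The libraries with decidual sums of 37.3, 31.1 and 23.2 CPM had Ctla2a in the same order, at 25.05, 12.1 and 5.56 CPM. The remaining wildtype libraries did not keep that order, with sums of 9.66, 5.25 and 0.644 CPM beside Ctla2a at 3.95, 4.76 and 4.33 CPM. The part of decidual RNA in the Ctla2a result was not tested.

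Trophoblast and yolk sac markers had another order of libraries. The summed CPM of 11 trophoblast genes was 2.68, 2.54, 0.465 and 8.14 in wildtype and 2.04 and 18.5 in Cdx2P:Nr6a1, with Synb at 0 throughout. That of 7 genes of the visceral endoderm of the yolk sac, led by Afp and Ttr, was 13.5, 114, 4.15 and 45.6 in wildtype and 11.2 and 42.3 in Cdx2P:Nr6a1. The Cdx2P:Nr6a1 embryo with the higher Ctla2a level had the lower level of each of these lists. With the 2 libraries of highest trophoblast level left out, the fourth wildtype and the second Cdx2P:Nr6a1, the fitted change of Ctla2a was 2.51 (a choice made after seeing the data, with 1 transgenic library assumed to vary as the wildtype ones). That fit kept the Cdx2P:Nr6a1 library with the highest decidual sum, 37.3 CPM, and dropped the wildtype library with the highest, 23.2 CPM. The part of trophoblast, yolk sac or decidual RNA in the Ctla2a result was not tested.

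**Figure D2:**
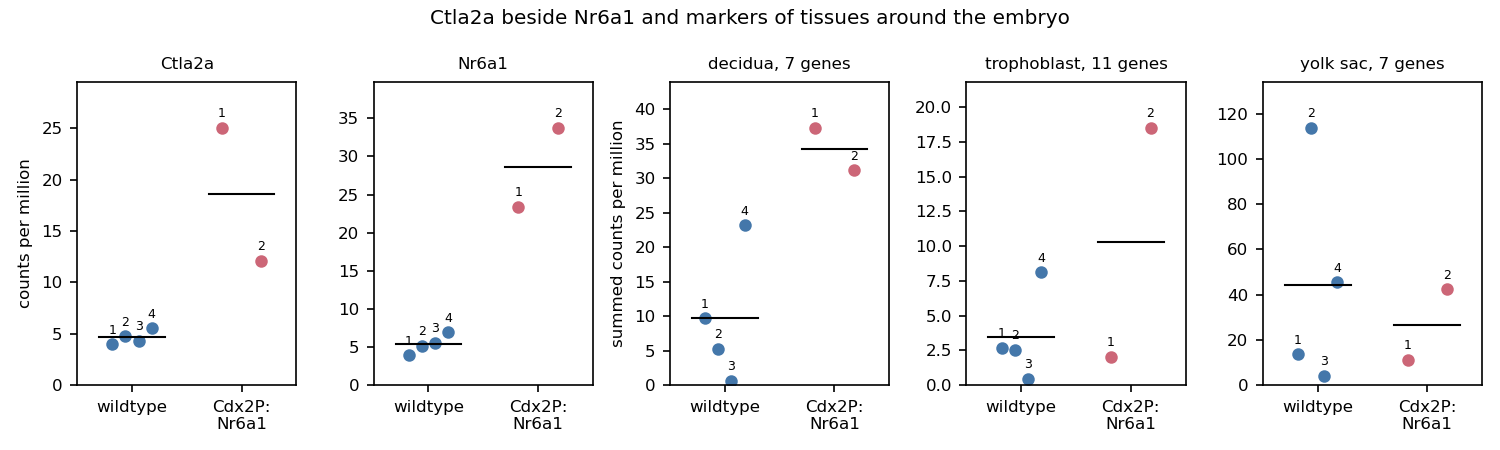
CPM (y axes, from 0, a separate scale in each panel) of Ctla2a and Nr6a1, and summed CPM of 7 decidual, 11 trophoblast and 7 yolk sac endoderm markers, in the 4 wildtype (blue) and 2 Cdx2P:Nr6a1 (red) libraries. Points are libraries with their replicate number and lines are means. The decidual sum is above the wildtype values in both Cdx2P:Nr6a1 libraries (37.3 and 31.1 against at most 23.2), and the trophoblast sum in the second only.

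The relatives of Ctla2a and the proteases it could act on were examined as a list. Of the 11 genes of the Ctla2 and cathepsin list, 9 were tested and 0 were called by edgeR, with 0 at an unadjusted p under 0.05 and 0 called by DESeq2. Ctsl, which encodes cathepsin L, was at 220, 245, 261 and 240 CPM in wildtype and at 240 and 232 CPM in Cdx2P:Nr6a1, a log2 change of -0.04 ± 0.06 (adjusted p = 0.91). The other lysosomal proteases gave log2 changes of -0.07 for Ctsb, 0.13 for Ctsh, -0.15 for Ctss, -0.22 for Ctsc, 0.04 for Ctsz and -0.11 for Ctsf. The cystatins Cst3 and Cstb, which inhibit cathepsins, gave -0.01 and 0.01. Ctsk was too low to be tested, at 0.264, 0.340, 0.125 and 0.222 CPM in wildtype and 0.862 and 0.759 CPM in Cdx2P:Nr6a1.

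Of the ligands and co-receptors of the same pathways, 8 of 10 genes were tested and the quasi-likelihood test of edgeR called 0, while 5 had an unadjusted p under 0.05, beside 10.54% of all genes tested. DESeq2 and edgeR's likelihood ratio test each called 1, Angpt1. Vegfa, the main ligand of Kdr, was at 72.6, 79.0, 78.1 and 73.2 CPM in wildtype and at 103 and 79.0 CPM in Cdx2P:Nr6a1 (log2 change 0.26 ± 0.09, adjusted p = 0.30), so that the higher mean came from the first transgenic embryo. Angpt1, the ligand that activates Tek, was at 17.98, 12.7, 18.1 and 15.9 CPM in wildtype and at 24.9 and 23.1 CPM in Cdx2P:Nr6a1 (0.56 ± 0.14, adjusted p = 0.10). Angpt2, which often opposes Angpt1, was at 10.1 to 11.6 CPM in wildtype and at 9.35 and 6.21 CPM in Cdx2P:Nr6a1 (-0.48 ± 0.15, adjusted p = 0.22). For Angpt1 and Angpt2 the groups did not overlap, though neither passed the threshold in the quasi-likelihood test, beside 18.6% of all genes tested with such separation. Angpt1 was called by DESeq2 (adjusted p = 0.0021), by the likelihood ratio test (0.027) and with no filter on low counts (1.01e-05). Angpt2 (0.014) and Vegfa (0.0018) were also called with no filter. The replicate block called Angpt1 (0.0021) and Angpt2 (0.036), but it took the genotype effect from replicates 1 and 2 of each genotype only. The log2 change of Vegfa was 0.43 without Cdx2P:Nr6a1 replicate 2 and 0.06 without Cdx2P:Nr6a1 replicate 1.

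The lymphatic ligand Vegfc was at 22.3, 19.1, 24.1 and 20.9 CPM in wildtype and at 16.5 and 17.7 CPM in Cdx2P:Nr6a1 (-0.34 ± 0.11, adjusted p = 0.20). With no filter on low counts Vegfc was called by edgeR (adjusted p = 0.041). Vegfb gave -0.16 ± 0.06 (adjusted p = 0.40), with groups that did not overlap. The receptors and co-receptors of this list gave 0.13 for Flt4, 0.21 for Nrp1 and 0.01 for Nrp2 (edgeR adjusted p of 0.84, 0.85 and 0.99). Vegfd, at up to 0.522 CPM, and Pgf, at up to 1.93 CPM, were under the filter.

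The 4 lists of further endothelial genes, beyond the members, held 65 genes, among them the 10 ligands and co-receptors above. Of these, 57 were tested, and 2 were higher and 1 was lower in Cdx2P:Nr6a1 by edgeR. In the same edgeR test 14 had an unadjusted p under 0.05, which is 24.6% of the 57 beside 10.54% of all genes tested. The ligand and co-receptor list gave 5 of these 14, from 8 tested genes. The other lists gave 4 of 22, 3 of 16 and 2 of 11. The median log2 fold change of the 57 was 0.03, beside -0.00071 for all genes. The higher ones were both surface proteins. Procr, the endothelial protein C receptor, was at 2.32, 1.70, 1.20 and 3.14 CPM in wildtype and at 10.6 and 8.68 CPM in Cdx2P:Nr6a1, a log2 change of 2.21 ± 0.28 (adjusted p = 0.0075). Ly6a, also known as Sca-1, was at 1.10, 1.06, 1.43 and 1.31 CPM in wildtype and at 2.52 and 3.23 CPM in Cdx2P:Nr6a1, a log2 change of 1.23 ± 0.20 (adjusted p = 0.022). The filter asks for more than 2 CPM in at least 2 libraries, which Ly6a reached only through the Cdx2P:Nr6a1 libraries, so that it was tested because it was high there. Both are low genes, and in both every transgenic value exceeded every wildtype value.

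Leaving out an embryo changed both calls more than the folds. Without the first Cdx2P:Nr6a1 embryo Procr had an adjusted p of 0.071 (edgeR), with a log2 change of 2.07, and over all 14 alternative fits its adjusted p ran from 7.77e-44 to 0.071. Without the second wildtype embryo Ly6a had an adjusted p of 0.052, the highest of the 11 alternatives that tested it, with a log2 change of 1.16. The alternatives that left out a transgenic library could not test it, since it then failed the filter. Ly6c1, a relative of Ly6a, was under the filter, at 0.224, 0.125, 0.179 and 0.111 CPM in wildtype and at 1.38 and 0.506 CPM in Cdx2P:Nr6a1, with the higher value in the first transgenic embryo as for Ctla2a and Procr, and was named after its values were seen. Decidual markers, given above, were also higher in both transgenic libraries, and their part in the Procr and Ly6a results was not tested.

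**Figure D3:**
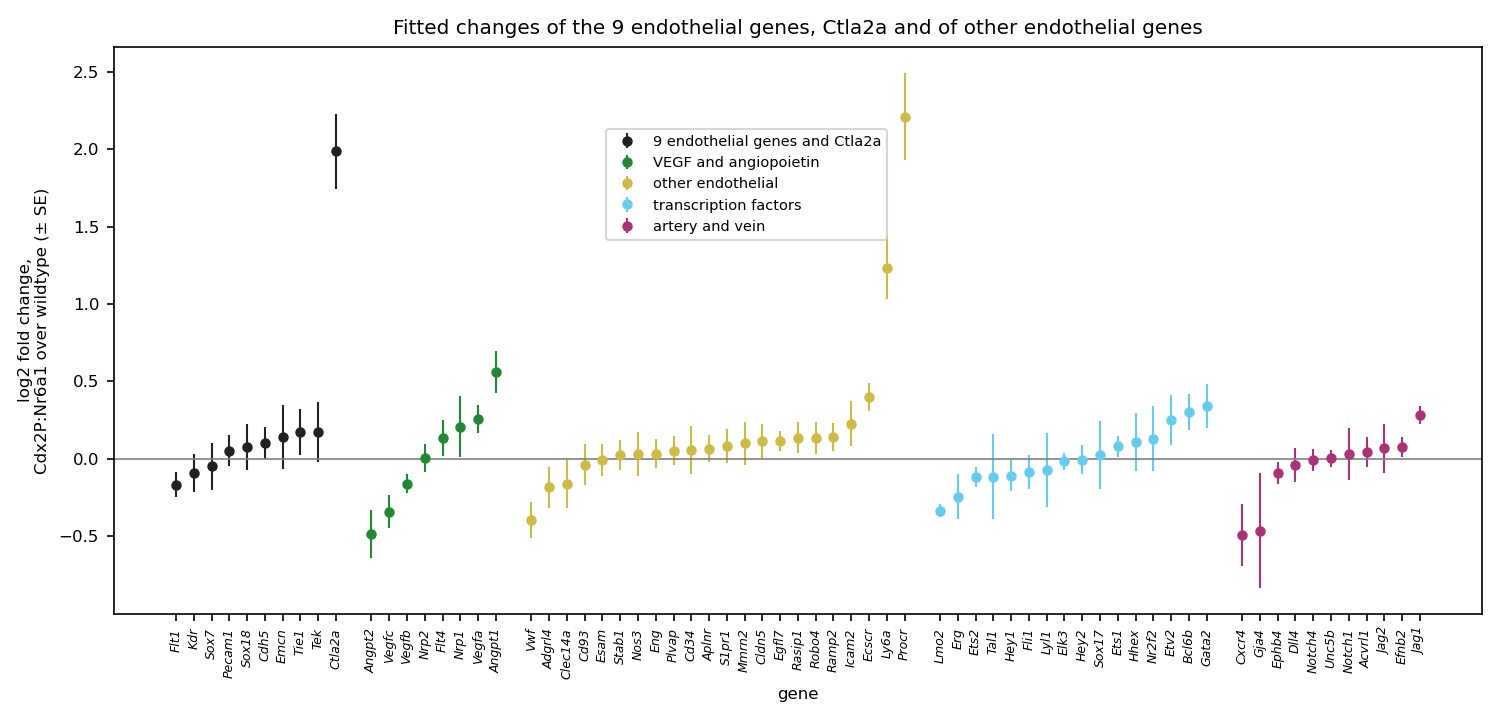
Fitted log2 fold change of Cdx2P:Nr6a1 over wildtype (y axis) with its standard error for the 9 endothelial genes with Ctla2a (black) and the 57 tested genes of 4 other lists, the VEGF and angiopoietin list among them (x axis, ordered within each list). The 9 endothelial genes lie between -0.17 and 0.18, and Ctla2a (1.99), Procr (2.21) and Ly6a (1.23) stand above the rest.

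The rest of the general endothelial genes gave smaller differences. Of the 27 genes of this list 22 were tested, and the 20 not called by edgeR ranged from -0.39 for Vwf to 0.40 for Ecscr in log2 fold change. The 3 with the highest wildtype level per kilobase were Aplnr, the apelin receptor, with a log2 change of 0.07 ± 0.09, Plvap, a protein of endothelial fenestrae, with 0.05 ± 0.09, and Egfl7, a secreted vessel protein, with 0.12 ± 0.06 (adjusted p of 0.90, 0.93 and 0.62).

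Among 16 transcription factors, all tested, 1 was called. Lmo2, an adaptor of blood and endothelial progenitors, was at 273, 270, 271 and 263 CPM in wildtype and at 219 and 210 CPM in Cdx2P:Nr6a1, lower by a log2 change of -0.33 ± 0.04 (edgeR adjusted p = 0.0079). The fold was small and the wildtype values close together. With the first or the second transgenic embryo left out the adjusted p was 0.053 or 0.073, and with the fourth wildtype and second transgenic embryo left out it was 0.15, while the log2 change stayed at -0.36, -0.31 and -0.33. Ets2, the highest of the list, gave -0.11 ± 0.06, and Hey1, an effector of Notch, gave -0.11 ± 0.10 (adjusted p of 0.64 and 0.85).

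Of 12 artery and vein genes 11 were tested and 0 were called by edgeR, with 2, Jag1 and Cxcr4, at an unadjusted p under 0.05 (Jag1, a Notch ligand named after its values were seen, at 0.28 ± 0.06 with adjusted p = 0.058, was the 1 gene called by DESeq2 and by the likelihood ratio test). The 3 with the highest wildtype level per kilobase were Ephb4, the vein receptor, with -0.09 ± 0.07, Unc5b, an arterial netrin receptor, with 0.00 ± 0.06, and Cxcr4, a chemokine receptor, with -0.49 ± 0.20 (adjusted p of 0.80, 0.99 and 0.41). Cxcr4 spread widely within wildtype, at 47.5, 70.9, 52.8 and 73.8 CPM, and was at 35.2 and 51.8 CPM in Cdx2P:Nr6a1.

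Markers of the other cell types a tailbud holds were counted in the same way. Of the 10 pericyte and smooth muscle genes 6 were tested, and 1 of them, Des, was higher, from 3.68, 4.21, 3.90 and 4.60 CPM in wildtype to 6.35 and 9.76 CPM in Cdx2P:Nr6a1 (0.98 ± 0.17, adjusted p = 0.027 by edgeR). It was not called without the second transgenic embryo (adjusted p = 0.23). Notch3, Acta2 and Pdgfrb, the highest of the list, gave -0.02, 0.35 and 0.11 in log2 change without passing edgeR's quasi-likelihood test. Acta2 was called by DESeq2, and Acta2 and Rgs5 with no filter.

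Erythroid genes were 0 of 10 called (0 of 10 also by DESeq2 and at an unadjusted p under 0.05), with summed levels of 20790, 10740, 8544 and 15920 CPM in wildtype and 10330 and 14240 CPM in Cdx2P:Nr6a1. The globins Hbb-y, Hbb-bh1 and Hba-x, of which Hbb-y ran from 4190 to 9994 CPM in wildtype, carried that sum. Macrophage genes were 0 of 10 called (1, Lyz2, by the likelihood ratio test and 0 by DESeq2), with Lyz2, a lysozyme gene named after its values were seen, at an unadjusted p under 0.05 (adjusted p = 0.084, with 28.7 CPM in the second transgenic embryo and at most 5.19 CPM in wildtype). Their summed levels were 30.2, 21.0, 47.6 and 47.5 CPM in wildtype and 22.7 and 64.3 CPM in Cdx2P:Nr6a1, and C1qb, Tyrobp and Fcer1g were the highest per kilobase, with log2 changes of -0.15, 0.06 and 0.09. Of the megakaryocyte and blood progenitor genes 0 of 7 tested were called (0 also by DESeq2 and at an unadjusted p under 0.05), and Kit, Pf4 and Itga2b, the highest, gave 0.20, -0.05 and -0.15.

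The tissue was a tailbud by its own markers, led per kilobase by T, Msgn1 and Tbx6, with T at 1146, 1189, 1070 and 975 CPM in wildtype and 1059 and 886 CPM in Cdx2P:Nr6a1, and log2 changes of -0.18, -0.43 and -0.26 that did not pass edgeR's quasi-likelihood test. With no filter and with the replicate block, Msgn1 and Tbx6 were called. Of the 10 tailbud genes, all tested, the quasi-likelihood test called 2, both higher in Cdx2P:Nr6a1, Cdx2 by 0.35 ± 0.07 (adjusted p = 0.034) and Cyp26a1, a retinoic acid hydroxylase, by 0.73 ± 0.13 (adjusted p = 0.032). DESeq2 and the likelihood ratio test each called 4, adding Tbx6, which was lower, and Nkx1-2, which was higher. Of 8 hindgut genes tested the quasi-likelihood test called 1, Krt18, higher by 0.37 ± 0.06 (adjusted p = 0.026), while Cldn6, Epcam and Krt8 gave 0.18, 0.25 and 0.35. DESeq2 and the likelihood ratio test each called 2, Krt8 and Krt18, and the replicate block 3, with Epcam added. The quasi-likelihood calls of Cdx2, Cyp26a1 and Krt18 were each lost in at least 1 fit with an embryo left out. With a wildtype embryo left out, their edgeR adjusted p reached 0.093, 0.081 and 0.054.

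Within a genotype, many but not all of the endothelial genes varied together from embryo to embryo, a pattern that does not use the contrast by which they were chosen. Each log2 CPM had its genotype mean removed, and the median Pearson r over the 36 pairs of the 9 genes was 0.52 across the 6 libraries, from -0.76 for Flt1 with Sox18 to 0.97 for Cdh5 with Tie1. Of the 36 pairs 27 were positive. Tek and Tie1, which form a receptor complex, had an r of 0.97, Pecam1 and Emcn 0.94, and Kdr and Flt1 0.68. The SOXF genes were mixed. Sox18 had an r of 0.69 with Tek, 0.50 with Tie1 and -0.76 with Flt1, and -0.11 with Sox7. The r of Sox7 ran from -0.30 with Emcn to 0.28 with Kdr, so it did not vary with the others. Flt1 had an r of -0.09 with Tek. The points share library and depth, the 2 Cdx2P:Nr6a1 values mirror each other by construction, and no p is given.

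The mean deviation of the 9 genes was -0.13, -0.09, 0.15 and 0.07 (log2) in the wildtype libraries and -0.14 and 0.14 in the Cdx2P:Nr6a1 libraries. The first 2 wildtype embryos and the first transgenic embryo were thus on the low side. Ctla2a had an r of -0.48 to that mean over the 6 libraries, beside a median of 0.00362 over all genes tested, but of 0.38 over the 4 wildtype libraries alone, so that the sign rests on the 2 Cdx2P:Nr6a1 libraries. Without the second wildtype library the median r over pairs was 0.83.

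**Figure D4:**
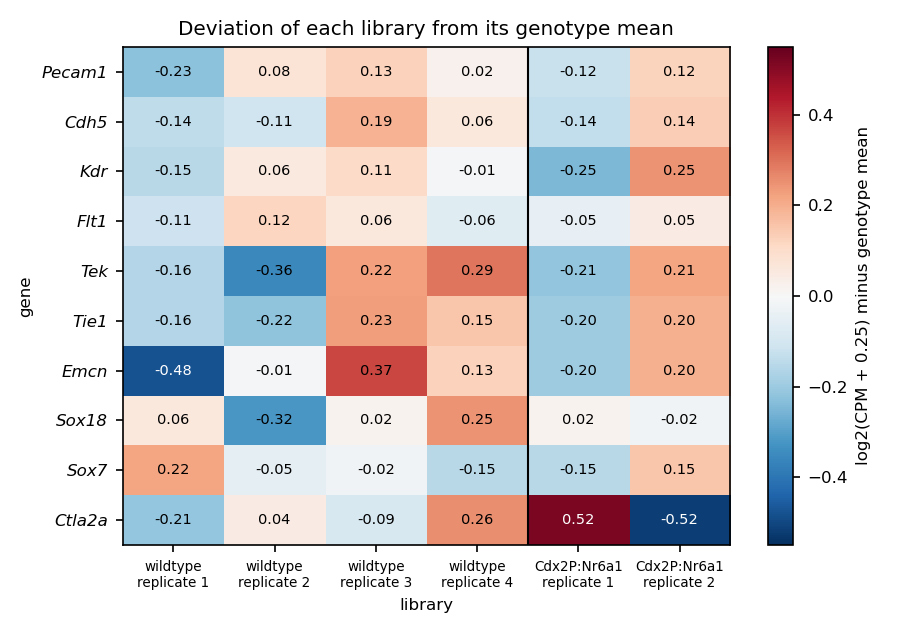
Log2(CPM + 0.25) of each member minus its genotype mean (colour and printed value), by gene (rows) and library (columns), with a line between the wildtype and Cdx2P:Nr6a1 libraries. Cdh5, Tek, Tie1 and Emcn are low in the first wildtype and first Cdx2P:Nr6a1 libraries and high in the third wildtype and second Cdx2P:Nr6a1 libraries, and Ctla2a has the opposite sign in the Cdx2P:Nr6a1 libraries.

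The genes whose pattern was most like that of Ctla2a over the 6 libraries, by Pearson r of log2 CPM among genes with a mean of at least 5 CPM, were Gstm2, Klhl5, Pkp2, Klhdc7a and Mrpl46, with r from 0.989 to 0.997. That they were high in both Cdx2P:Nr6a1 libraries, and highest in the first, follows from how they were picked. Their changes were much smaller than that of Ctla2a, from 0.10 for Mrpl46 to 0.56 for Klhdc7a in log2. Klhl5 at 0.28 ± 0.05 and Klhdc7a at 0.56 ± 0.11 were called by edgeR (adjusted p of 0.042 and 0.038), and the other 3 were not. Klhl5 was called in 5 and Klhdc7a in 7 of the 14 alternatives, with adjusted p of up to 0.28 and 0.23, and both lost the call when any wildtype embryo or the first transgenic embryo was left out.

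The genes most like the mean of the 9 endothelial genes, after removal of genotype means, were Socs2, Cbx8, Zscan22, AI597479 and Agfg1, with r from 0.993 to 0.998. Their own spread was small. Agfg1, for example, ran from 108 to 109 CPM in wildtype, a coefficient of variation of 0.718%, against 23.7% for Emcn. With 6 libraries, r that high in genes of nearly constant level is a description only.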

How the data were processed

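Tailbud RNA was sequenced from 4 wildtype and 2 Cdx2P:Nr6a1 embryos. The authors aligned reads to mm10 with STAR, per the labels' processing notes, and deposited raw read counts per gene with exon coordinates. The counter and whether it used strand are not given in the sources used here. A deposited table of the authors' own fold changes, p-values and CPM was not used. The members and lists were chosen with earlier results of these data known.

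CPM was calculated from column totals. Genes with a count above 10 and CPM above 2 in at least 2 libraries were tested with edgeR 4.0.16 (TMM, quasi-likelihood, Benjamini-Hochberg over 12733 genes, R 4.3.3), and the SE is the log2 fold change over the square root of F. DESeq2 1.42.0 and the other alternatives are given with the closing results. The fit was tested on simulated counts. Log2 values had 0.25 CPM added. P-values set a difference against the spread between these embryos within a genotype, moderated over all genes tested. With 2 Cdx2P:Nr6a1 embryos, they say little of the spread between insertions.

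Named were all members, every VEGF, angiopoietin, Ctla2 and cathepsin gene, and in other lists each called gene and the 3 with the highest wildtype CPM per kilobase. The 5 genes most like Ctla2a and the 5 most like the mean of the 9 endothelial genes were also named. The decidual, trophoblast and yolk sac lists were chosen after seeing values.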

Additional observations from a re-analysis of the deposited data

Results flagged for a closer look

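The summed level of the 12 artery and vein genes was 1305 CPM in the first wildtype embryo, far from the other wildtype embryos at 1176, 1187 and 1198 CPM by Dixon's test (gap over range 0.833, above the critical value for 4 samples). Notch1, at 233 CPM in that embryo against 146 to 163 CPM in the others, carried most of the gap. This was 1 of 28 sets of 4 wildtype values examined, and chance alone would give about 1 in 20.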

How the results depend on the processing

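Ctla2a was higher in Cdx2P:Nr6a1 in each of the 14 other fits, which is no independent support since it was chosen on these values. The replicate block, which used 2 of the 4 wildtype embryos for the genotype effect, gave 2 members past the threshold, Emcn besides Ctla2a. Ctla2a had a log2 change of 1.38 to 2.42 with 1 library left out, and of 2.51 with both trophoblast-high libraries left out. The median of the 9 ran from -0.080 to 0.17 with 1 library left out, was -0.056 with both left out and 0.23 with the replicate block. Over all genes 401 were called by the likelihood ratio test, 477 by DESeq2, 876 without a filter, 442 with the replicate block, 61 to 175 with 1 library left out and 13 with both trophoblast-high libraries left out. The further endothelial genes called numbered 5, 7, 13 and 10 in the first 4 of these, 0 to 3 with 1 library left out and 1 with both left out. Replicate numbers were not shown to pair embryos: with only 2 shared numbers, deviations of same-numbered samples correlated at 0.27 and -0.23. The median r over pairs ran from 0.44 to 0.83 with 1 library left out. Of the tested values of single genes that are no members, 431 stayed on their side of the threshold, 42 lost a call and 13 gained one. Of the log2 changes of the 9 endothelial genes, 121 moved by less than the replicate spread and 5, of Kdr and Sox7, by more. The cause of each change was not tested, beyond fewer samples. With 2 transgenic embryos, each an own insertion, the spread within Cdx2P:Nr6a1 is poorly known.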
